A study of Rattus norvegicus with 4 samples.

Results

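The enzymes that process drugs and other foreign compounds were followed in the colon of rats with and without mesenchymal stem cell transplantation (MSCT). Members were taken by gene symbol: the cytochrome P450 (Cyp), flavin monooxygenase (Fmo), alcohol and aldehyde dehydrogenase (Adh, Aldh), carboxylesterase (Ces) and epoxide hydrolase (Ephx) families of phase I, and the UDP-glucuronosyltransferase (Ugt), sulfotransferase (Sult), glutathione S-transferase (Gst) and microsomal glutathione S-transferase (Mgst) families of phase II. Cyp24a1, Cyp27b1 and Cyp51 were left out. Of 129 such genes with a row on the array, 104 held a value on all 4 arrays, out of 18350 measured rows, and 25 were blank on every array. Among the blank genes were Cyp1a1, Cyp1b1, Cyp7a1 and Aldh3a1. Some members work mainly on the body's own lipids and steroids and not on drugs, such as Ugt8, Cyp8b1 and Cyp11b2.

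The animals were male Sprague Dawley rats, and total RNA of the colon was measured on one-color NimbleGen arrays, with 1 array for each of 2 control rats and 2 MSCT rats. In the model, TNBS dissolved in ethanol was instilled into the colon, and GFP-labelled mesenchymal stem cells from a commercial source were given through the tail vein. The sample descriptions call the control rats normal, whereas the study's design text and its paper call them IBD controls. They are therefore named the control group. As these sources conflict, it cannot be told from them whether both groups had received TNBS. The study's text places the samples in lesion areas of the colon. No age is given, and the day of sampling is given differently in separate places of the study's text. Values are log2 intensities of a transcript, and a difference is the MSCT mean minus the control mean of log2 intensity. Intensities of different transcripts depend on their probes and are not compared as levels.

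Foreign compounds are usually handled in steps. Phase I enzymes add or uncover a reactive group by oxidation or hydrolysis, and phase II enzymes attach glucuronic acid, sulfate or glutathione, after which transporters export the product. The liver holds most of this activity, but the intestinal epithelium has its own set and meets food compounds, drugs and bacterial products first. The same families also act on fatty acids, bile acids, retinoids and steroids.

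Colon epithelium was clearly represented on all arrays. Of the 8 measured markers of colon epithelium, 6 were higher in MSCT and 2 lower, with a median difference of 0.17. The mean of the list was 13.72 and 13.70 in control and 13.96 and 13.85 in MSCT. Epcam was between 13.91 and 14.09 on the 4 arrays, and none of the 8 passed the screen. None of the 5 measured smooth muscle markers passed it either. The screen is the one in the study's methods, an unadjusted p under 0.05 and a difference over 2-fold, applied here to limma, a linear model that shares the variance estimate between rows. As the tissue is a mixture, fewer cells of a type and less RNA per cell cannot be told apart in any of the values.

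Of the 104 enzymes, 14 (13.5%) passed the screen, against 4.63% of all measured rows and 4.91% of named genes taken with 1 row each. Higher in MSCT were 10, where 2.12% of rows were higher, and lower were 4, where 2.51% of rows were lower. The higher genes were Cyp4f1, Ugt8, Sult1c2, Cyp8b1, Ces2c, Gsta3, Sult1a1, Adh6, Ephx1 and Ugt1a2, and the lower genes were Ces1d, Cyp4x1, Adh4 and Cyp27a1. All 5 phase II enzymes past the screen were higher, while phase I gave 5 higher and 4 lower. Whether the phases differ in direction was not tested.

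An unadjusted p under 0.05, without the fold limit, was reached by 22 enzymes (21.2%), 11 higher and 11 lower, against 12.0% of rows. In 62 enzymes (59.6%) no control array overlapped with the MSCT arrays, with MSCT above in 39 and below in 23, against 45.8% of rows. No enzyme passed an adjusted p of 0.05 (limma, Benjamini-Hochberg over every measured row), and 0% of rows did. The adjusted p of the 14 enzymes past the screen ran from 0.257 to 0.399. An ordinary t-test with equal variances also gave 0 after adjustment. With a variance that depends on intensity, 10 enzymes passed an adjusted p of 0.05, against 2.11% of rows, and when the dimmest 50% of rows were left out 6 of the 49 remaining enzymes did, against 2.69% of those rows. Both of these fits called Ces1d, Adh4, Sult1a1, Ces2c and Cyp4f1.

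The median difference of the enzymes was 0.20, against -0.02 over all rows, and 63.5% of the enzymes were higher in MSCT, against 48% of rows. This median fell to 0.05 when control replicate 1 was left out.

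**Figure D1:**
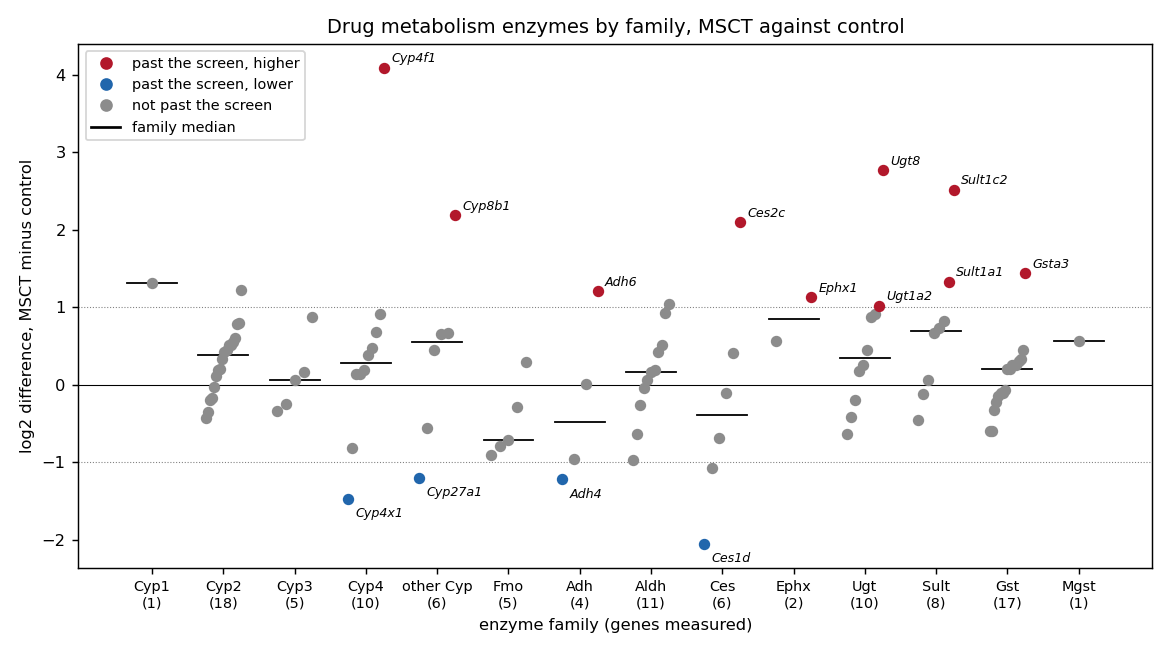
Log2 difference (MSCT minus control) of each of the 104 enzymes, by family, with the number of genes measured under each family name. Points past the screen are coloured and named, dotted lines mark 2-fold, and black bars mark family medians. Cyp4f1 stands highest at 4.09 and Ces1d lowest at -2.05.

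Among the cytochromes P450, the enzymes that oxidize substrates with molecular oxygen, 40 genes were measured and 4 passed the screen. Cyp4f1, of a subfamily that hydroxylates leukotriene B4 and fatty acids at the end of the chain, had the largest difference of all members. It read 7.45 and 9.20 in the control rats and 12.69 and 12.13 in the MSCT rats. The control arrays lay 1.75 apart, but both stood far below the MSCT arrays. The difference was 4.09 (SE 0.64, 17.0-fold, adjusted p = 0.26 by limma), and it was between 3.21 and 4.96 with any one array left out.

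None of the other 5 Cyp4f genes passed the screen. Cyp4f6, the next protein-coding gene on the chromosome, had a difference of 0.19 (SE 0.22), with overlapping groups. Cyp4f5 was lower in MSCT on both arrays, from 12.40 and 12.29 to 11.32 and 11.73. Its difference was -0.82 (SE 0.23), past the p limit but short of 2-fold. Cyp4f4 could not be placed, because its control arrays read 6.90 and 9.66 on either side of the MSCT values of 9.23 and 9.18. The difference of Cyp4f4 was 0.92 (SE 0.94) with all arrays and -0.46 without control replicate 1. The bases before the start of Cyp4f1 are shown because it had the largest difference, as RefSeq gives them in build GRCr8 (chr7:12672554-12672803, minus strand), with the core of the aryl hydrocarbon receptor element in capitals.
Cyp4f1: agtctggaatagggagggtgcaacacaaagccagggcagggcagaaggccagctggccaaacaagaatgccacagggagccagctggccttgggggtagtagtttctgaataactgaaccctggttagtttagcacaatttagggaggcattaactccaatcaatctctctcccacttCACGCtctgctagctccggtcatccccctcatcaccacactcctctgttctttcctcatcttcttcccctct

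That core, GCGTG on either strand, is common: it was present in 31.1% of all 27457 promoters of 300 bases and in 26 of the 90 members with a promoter (28.9%). Promoters ran from 250 bases before to 50 bases after the start, and 14 members had none in the table. A match describes the letters and not the use of a site. The receptor gene Ahr itself was at 9.81 and 10.52 in control and at 10.32 and 10.10 in MSCT, a difference of 0.05 (SE 0.31).

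Cyp4x1, a member of the same family with less known substrates, was lower in MSCT, from 8.91 and 9.06 to 7.01 and 8.02. The difference was -1.47 (SE 0.39), and it passed the screen in only 1 of the 4 fits with an array left out. The remaining Cyp4 genes (Cyp4a2, Cyp4a3, Cyp4b1, Cyp4f18 and Cyp4f39) had differences between 0.14 and 0.68 and did not pass.

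The sterol-oxidizing P450s went in both directions. Cyp8b1, the sterol 12-alpha-hydroxylase that directs bile acid synthesis to cholic acid, was at 7.79 and 9.78 in control and at 11.06 and 10.90 in MSCT. The MSCT arrays were close together and the control arrays 1.99 apart. The difference of 2.19 (SE 0.69) was 1.20 without control replicate 1 and 3.19 without control replicate 2. It was 2.11 without MSCT replicate 1 and 2.27 without MSCT replicate 2, and both of these fits lost the call. Cyp8b1 is known as a liver gene, and the liver markers are given with the other cell type lists at the end. Cyp27a1, the mitochondrial sterol 27-hydroxylase, was lower in MSCT, at 8.70 and 9.71 against 10.18 and 10.63. Its difference was -1.20 (SE 0.41), and 3 of the 4 fits with an array left out lost the call. Of the other 4 genes of this group, Cyp20a1, an orphan P450, had a difference of 0.45 (SE 0.22) and none passed.

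In the families best known for drug oxidation, Cyp1, Cyp2 and Cyp3, no gene passed the screen with all 4 arrays. Several of these genes depended on 1 control array. Without control replicate 2, Cyp2a1, Cyp2c11, Cyp2c23 and Cyp2d2 had differences of 1.63, 1.24, 1.19 and 2.03. In Cyp2a1 and Cyp2c11, however, control replicate 2 (9.20 and 8.82) lay above both MSCT arrays, and the groups overlapped. Of 18 Cyp2 genes 13 were higher and 5 lower, with a median of 0.38 that dropped to 0.03 without control replicate 1. The brightest was Cyp2j3, of a subfamily that makes epoxides from arachidonic acid, with 12.85 and 12.86 in control and 12.41 and 12.59 in MSCT. Its arrays did not overlap between the groups, yet the difference was small, at -0.35 (SE 0.19). Cyp2d2, of the debrisoquine hydroxylase subfamily, had the highest difference of the family, 1.23 (SE 0.56), with 7.49 and 9.07 in control and 9.59 and 9.44 in MSCT. It passed the screen with a variance that depends on intensity, and without control replicate 2, where it was 2.03. Cyp2d4, a paralog on the same chromosome, had the lowest, -0.43 (SE 0.25).

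Cyp3a enzymes oxidize a large share of drugs in the intestine and liver. Cyp3a9 was bright and close on all arrays, at 13.40 and 13.02 in control and 12.80 and 12.95 in MSCT, with a difference of -0.34 (SE 0.23). Cyp3a23-3a1 was at 6.92 and 8.61 in control and 8.58 and 8.68 in MSCT, so that control replicate 1 alone stood apart. Its difference was 0.87 (SE 0.59), and without control replicate 2 it was 1.71 and passed. The median of the 5 Cyp3 genes was 0.06, and its sign changed when dim rows or single arrays were left out. Cyp1a2, the only measured Cyp1 gene and a classical target of the aryl hydrocarbon receptor, read 5.57 and 7.01 in control and 7.67 and 7.53 in MSCT. The groups did not overlap, but the difference of 1.31 (SE 0.52) missed the p limit. Cyp1a2 passed the screen with the replicate number as a block, after quantile normalization and without control replicate 2 (2.03), and it was 0.59 without control replicate 1.

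**Figure D2:**
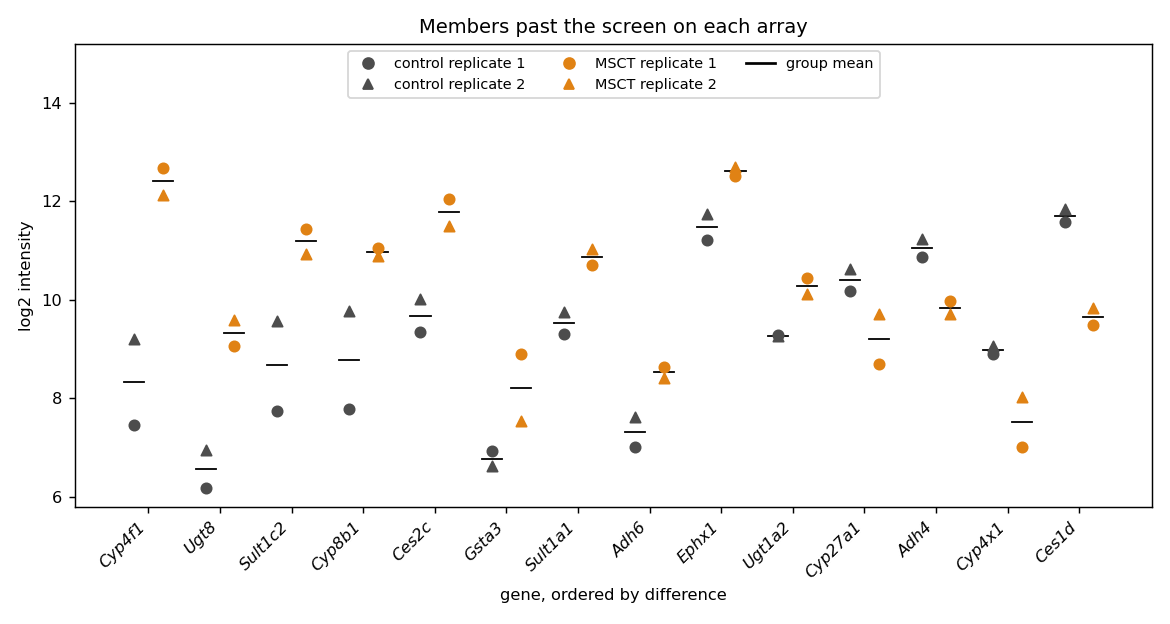
Log2 intensity of the 14 enzymes past the screen on each of the 4 arrays, ordered by difference, with control arrays in grey, MSCT arrays in orange and bars at the group means. The control arrays lie far apart for Cyp4f1, Sult1c2 and Cyp8b1 and close together for Ugt1a2 (9.28 and 9.26) and Cyp4x1 (8.91 and 9.06).

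Carboxylesterases split drug esters, amides and acylglycerols. The 2 of 6 that passed the screen went in opposite directions. Ces1d, a microsomal carboxylesterase also known as a triacylglycerol hydrolase, was at 11.58 and 11.84 in control and at 9.48 and 9.83 in MSCT. Replicates were close in both groups, and the difference of -2.05 (SE 0.23, 4.15-fold lower) had the smallest p of all members (adjusted p = 0.257 by limma). Ces2c, of the carboxylesterase class typical of the intestine, was at 9.34 and 10.01 in control and at 12.06 and 11.50 in MSCT. Its difference was 2.10 (SE 0.34, adjusted p = 0.26 by limma), and both genes passed the screen with any one array left out.

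The other Ces1 genes gave smaller or unclear values. Ces1e, which precedes Ces1d on the chromosome, was lower on both MSCT arrays (9.72 and 10.05 against 10.21 and 10.91), with a difference of -0.68 (SE 0.32). Ces1c, which follows Ces1d, overlapped between the groups, with a difference of 0.41 (SE 0.54). Ces1dl1, farther along the same chromosome, read 7.94 and 10.00 on the MSCT arrays, 2.07 apart, and had a difference of -1.07 (SE 0.73). The Ces1 genes are paralogs, and to what extent a probe of one also binds another cannot be read from the table.

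The Ces1 promoters also shared a letter pattern. The D-box, the element bound by the clock-controlled PAR bZIP factors Dbp, Tef and Hlf, was searched as TTATGTAA or TTACGTAA on both strands. It was present in 1.01% of all promoters and in 5 of the 90 members, namely Ces1c, Ces1d, Ces1dl1, Ces1e and Gsta3. The matches of the 4 Ces1 paralogs are not independent. The windows are shown with the D-box in capitals, from chromosome 19 of GRCr8 on the plus strand. Those of Ces1d lie at chr19:30046244-30046295 and chr19:30046407-30046458, that of Ces1e at chr19:30006055-30006106 and that of Ces1c at chr19:30099350-30099401.
Ces1d, first match: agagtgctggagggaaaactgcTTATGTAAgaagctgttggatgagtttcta
Ces1d, second match: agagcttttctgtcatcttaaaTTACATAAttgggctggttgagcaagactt
Ces1e: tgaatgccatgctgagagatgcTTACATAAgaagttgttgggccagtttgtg
Ces1c: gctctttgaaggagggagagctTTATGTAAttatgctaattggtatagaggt

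Of the genes with these letters, Ces1d was lower and Gsta3 higher past the screen. The Gsta3 match lies after the start, from base 9. Whether the letters have a part in any of the differences was not tested. Dbp, one of the factors, had a difference of 1.87 (SE 0.18) and passed the screen, and Tef had 0.93 (SE 0.19), past the p limit but under 2-fold. Hlf had no named row. The hour of sampling is not given for either group.

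A pair of neighbouring alcohol dehydrogenases passed the screen in opposite directions. Adh6 and Adh4 lie next to each other on chromosome 2. Adh6 was at 7.02 and 7.62 in control and at 8.64 and 8.42 in MSCT, a difference of 1.21 (SE 0.28). Adh4, the class II enzyme that oxidizes retinol and longer alcohols, was at 10.88 and 11.24 in control and at 9.98 and 9.71 in MSCT, a difference of -1.22 (SE 0.24). The groups did not overlap in either gene. The 300-base promoters of the pair aligned over 293 positions with 281 identical (95.9%), while the median of 39 pairs of neighbouring family members was 168 identical positions. The bases before each start follow, with TATAAA on either strand (in 14.3% of all promoters and 22.2% of the members) and GCGTG in capitals. Adh6 lies at chr2:229576386-229576635 and Adh4 at chr2:229621842-229622091, both on the plus strand of GRCr8.
Adh6: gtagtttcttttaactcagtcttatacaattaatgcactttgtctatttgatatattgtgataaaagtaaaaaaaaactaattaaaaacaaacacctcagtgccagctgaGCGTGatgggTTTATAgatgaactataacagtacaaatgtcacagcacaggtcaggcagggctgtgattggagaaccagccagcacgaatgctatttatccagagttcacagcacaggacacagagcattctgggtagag
Adh4: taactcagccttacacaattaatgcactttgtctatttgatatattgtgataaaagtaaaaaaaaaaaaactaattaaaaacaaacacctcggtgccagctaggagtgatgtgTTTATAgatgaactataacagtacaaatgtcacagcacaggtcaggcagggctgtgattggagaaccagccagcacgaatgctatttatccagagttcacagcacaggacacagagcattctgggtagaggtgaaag

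Of 31 pairs of members of 1 family with no other protein-coding gene between them, 14 differed in sign and 17 had the same sign, and some of these signs belong to values near 0, such as Cyp2c22 at -0.03. Adh1c, the class I enzyme of ethanol oxidation, was bright at 14.46 and 14.52 in control and 14.42 and 14.59 in MSCT, with no detectable difference (0.01, SE 0.19). Adh7, the class IV retinol dehydrogenase of upper digestive epithelium, was at 10.52 and 9.57 in control and 9.13 and 9.04 in MSCT, a difference of -0.96 (SE 0.36).

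Of the 11 aldehyde dehydrogenases, none passed the screen with all 4 arrays, and 1 passed in each fit with an array left out. Aldh1a1, which makes retinoic acid from retinaldehyde, came closest. It was at 13.09 and 12.74 in control and at 11.81 and 12.09 in MSCT, 1.95-fold lower, with a difference of -0.97 (SE 0.24), past the p limit, and it passed the screen without MSCT replicate 2 (-1.11) or control replicate 2 (-1.14). Aldh1a2 and Aldh1a3, which catalyse the same step, lay on the other side, with 0.93 (SE 0.40) and 1.04 (SE 0.43), and did not pass the p limit. Aldh1a2 passed the screen without MSCT replicate 1, and Aldh1a3 without control replicate 1 (1.56). Aldh3b1 was lower past the p limit but under 2-fold, with a difference of -0.64 (SE 0.19). Aldh2, the mitochondrial enzyme that clears acetaldehyde, was bright and within 0.19 (SE 0.20).

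Flavin monooxygenases oxidize nitrogen and sulfur atoms of drugs and amines. None of the 5 measured passed the screen with all 4 arrays, and 2 (Fmo2 and Fmo4) passed it without MSCT replicate 2. Fmo2 was at 12.09 and 11.89 in control and 10.69 and 11.47 in MSCT, a difference of -0.91 (SE 0.32), past the p limit but under 2-fold. It missed the p limit with the replicate number as a block, and its difference was -0.52 without MSCT replicate 1. Fmo1 had -0.79 (SE 0.21), also past the p limit. Fmo4 had -0.71 (SE 0.43) by the brighter of its rows and -1.63 (SE 0.65) by the other. Fmo1, Fmo2 and Fmo4 are next to each other on chromosome 13. The family median of -0.71 was -0.14 without MSCT replicate 1.

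Both epoxide hydrolases were higher in MSCT without overlap, where 45.8% of all rows had no overlap in either direction. Ephx1, the microsomal enzyme that opens epoxides left by P450s, was at 11.21 and 11.75 in control and 12.51 and 12.71 in MSCT, and its difference of 1.13 (SE 0.26) passed the screen. Ephx2, the soluble enzyme that turns epoxy fatty acids into diols, had 0.56 (SE 0.32) and did not pass. Its difference was 0.16 without control replicate 1, the lower of its control arrays (8.53 against 9.32).

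Glucuronosyltransferases attach glucuronic acid to bilirubin, steroids and drugs. Ugt8 is the exception in name, as it adds galactose to ceramide. It was at 6.17 and 6.96 in control and at 9.06 and 9.60 in MSCT, with a difference of 2.77 (SE 0.37, 6.8-fold), and it passed the screen with any one array left out. Among the 6 Ugt1a transcripts, which come from 1 locus with different first exons and a shared end, only Ugt1a2 passed. It was at 9.28 and 9.26 in control and 10.44 and 10.13 in MSCT, and its difference of 1.02 (SE 0.21) lay just past 2-fold.

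Ugt1a5 of the same locus was lower, from 11.66 and 11.74 to 10.93 and 11.19, with -0.64 (SE 0.20), past the p limit but under 2-fold. Ugt1a1, the bilirubin enzyme, and Ugt1a6, the phenol enzyme, were bright and differed by 0.25 (SE 0.19) and -0.20 (SE 0.20). How far probes in the shared exons enter each Ugt1a value is not given in the sources used here. The 3 Ugt2b genes had differences between 0.45 and 0.92, and control replicate 1 was the lowest of the 4 arrays in each.

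Of the 8 sulfotransferases, 6 were higher and 2 lower. Sult1c2 was at 7.75 and 9.58 in control and at 11.45 and 10.93 in MSCT. Its difference was 2.52 (SE 0.66), ranging from 1.60 to 3.44 with 1 array left out. Sult1a1, the main phenol sulfotransferase, was at 9.31 and 9.76 in control and 10.71 and 11.04 in MSCT, with 1.33 (SE 0.26). Sult2b1, which sulfates cholesterol and other sterols in epithelia, was higher past the p limit, with 0.82 (SE 0.24), and did not reach 2-fold. Sult1c3 reversed from 0.67 (SE 0.80) to -0.44 without control replicate 1. Sult4a1, a brain-type member, had the lowest value, -0.45 (SE 0.21). The family median of 0.70 was 0.24 without control replicate 1 and 0.37 without MSCT replicate 2.

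Glutathione transferases showed mostly small differences. Of 17 Gst genes, 16 did not pass the screen, and the median size of the difference, in either direction, was 0.25, against 0.45 for all members and 0.28 for all rows. Gstp1, the pi-class enzyme of gut epithelium, was at 12.09 and 12.27 in control and 12.30 and 12.48 in MSCT, a difference of 0.21 (SE 0.20). Gsto1, an omega-class enzyme, had 0.25 (SE 0.20), whereas its neighbour Gsto2 had -0.60 (SE 0.34). The single Mgst gene, Mgst1, had 0.57 (SE 0.22).

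Gsta3, an alpha-class enzyme, was the exception. It was at 6.93 and 6.62 in control and at 8.90 and 7.53 in MSCT, a difference of 1.44 (SE 0.51), and it passed in only 1 of the 4 fits with an array left out. Gsta1, the next gene, was lower, with 10.34 and 10.09 in control and 9.56 and 9.70 in MSCT, a difference of -0.59 (SE 0.20), past the p limit but under 2-fold, and it missed the p limit with the replicate number as a block. Both promoters hold the core of the antioxidant response element, TGACNNNGC, which was in 12.2% of all promoters and in 11 of the 90 members (12.2%). In 1 member promoter, that of Gstm5, this core overlapped GCGTG. In Gsta3 this core lies before the start, at -17, and in Gsta1 after it, from base 31. The Gsta3 match is shown in capitals, up to the last base before the start (chr9:31154932-31154988, plus strand, GRCr8). It was chosen because the neighbours share the letters of the element and differ in sign.
Gsta3: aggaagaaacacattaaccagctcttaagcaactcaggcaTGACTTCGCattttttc

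The factor that binds it, Nfe2l2, had a difference of 0.28 (SE 0.20). Nqo1, its best known target outside the families counted here, had 0.83 (SE 0.23), and Gclc, the catalytic subunit of glutathione synthesis and also a target, had -0.97 (SE 0.26). Both passed the p limit and neither reached 2-fold. The HNF4 motif CAAAGTCCA was in 0.375% of promoters and, of the members, in those of Cyp3a2 and Cyp3a23-3a1.

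**Figure D3:**
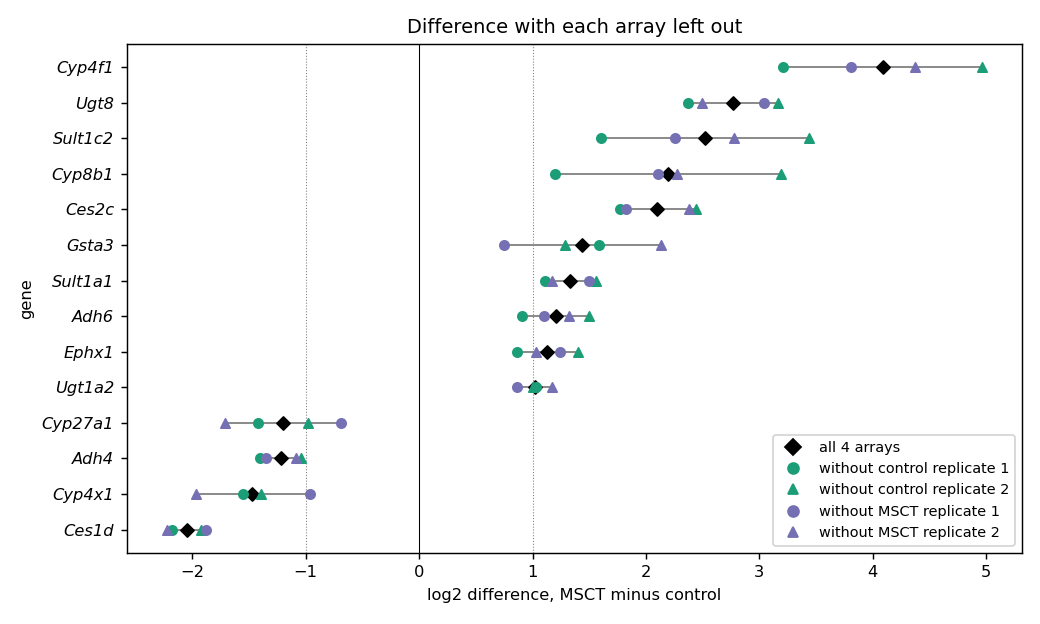
Log2 difference (MSCT minus control) of the 14 enzymes past the screen with all 4 arrays (black diamonds) and with each array left out. No value crosses 0, and the span is widest for Cyp8b1 (1.20 to 3.19), Sult1c2 (1.60 to 3.44) and Cyp4f1 (3.21 to 4.96).

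Of the 14 enzymes, 7 passed the screen in every fit with an array left out, and Adh4, Ces1d, Ces2c, Cyp4f1 and Sult1a1 passed under all 14 alternatives. Ugt8 passed under the 12 that kept its row, which is too dim for the fits without dim rows. Adh6 (0.91) and Ephx1 (0.86) fell short without control replicate 1, and Ugt1a2 (0.86) without MSCT replicate 1. Cyp8b1 was kept in 2 of 4 such fits, and Gsta3, Cyp27a1 and Cyp4x1 were kept in 1 of 4.

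Genes that serve the same pathway were counted from a list of 81, of which 67 were measured. Past the screen were 2, both higher, against 4.63% of rows: Dbp and Dpep1, a dipeptidase that trims glutathione conjugates, at 1.67 (SE 0.25). At an unadjusted p under 0.05, 8 were higher and 3 lower, against 12.0% of rows, of which 880 were higher and 1316 lower. Higher, besides these and Nqo1 and Tef, were Xdh (0.89), Cbr1 (0.76), Pon3 (0.51) and the efflux pump Abcb1a (0.76), and lower, besides Gclc, were the transporters Abcc5 (-0.71) and Slc22a5 (-0.63). The receptors that induce these enzymes in response to drugs, Nr1i2 (PXR) and Nr1i3 (CAR), had differences of -0.48 (SE 0.18) and -0.40 (SE 0.19). Por, the reductase that feeds electrons to all microsomal P450s, was within 0.07 (SE 0.19), and Hnf4a, a regulator of many of these genes in liver and gut, had -0.30 (SE 0.19).

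The control arrays lay farther apart for these enzymes than for most rows. They were over 2-fold apart in 24 of the 104 (23.1%), against 8.73% of rows, and control replicate 1 was the lower array in 23 of the 24. The MSCT arrays were that far apart in 10 enzymes (9.62%), against 7.49% of rows. Control replicate 1 was the lowest of the 4 arrays in 48 enzymes (46.2%), against 29.2% of rows and 34.1% of named genes. Among the dimmest 50% of rows it was lowest in 30 of 55 enzymes (54.5%), against 26.7% of rows and 33.6% of named genes. Array medians were close, between 9.73 and 9.80. Which control array was left out changed the size of many differences. The Cyp2 median, for example, was 0.03 without control replicate 1 and 0.62 without control replicate 2.

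**Figure D4:**
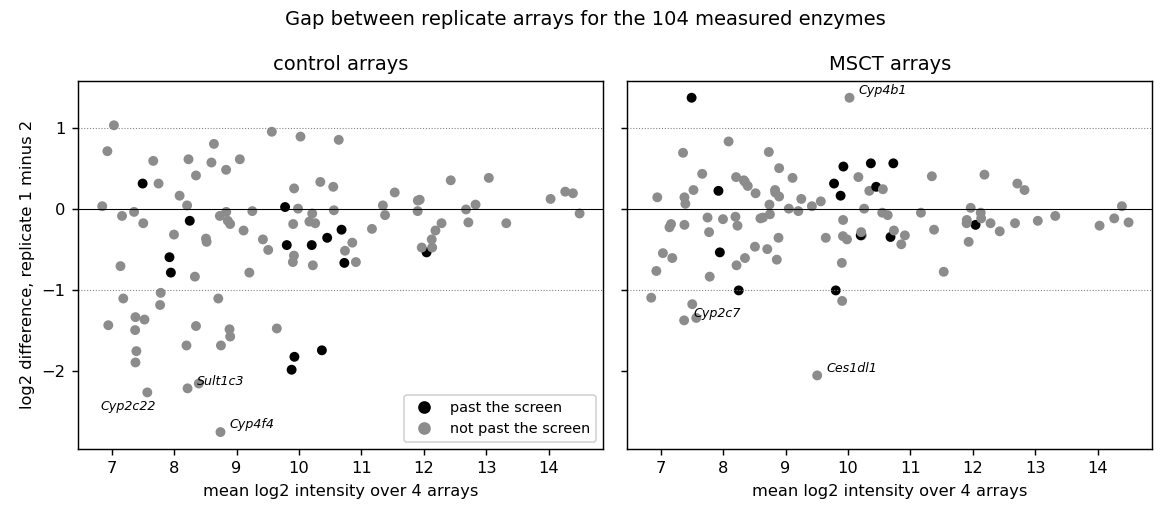
Log2 difference between replicate 1 and replicate 2 of each group for the 104 enzymes, against mean log2 intensity over the 4 arrays, with dotted lines at 2-fold. In control, 23 of the 24 points beyond 2-fold lie below 0 and most of them are dim, while 10 points lie beyond 2-fold in MSCT.

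Some marker lists of other cell types also differed between the arrays. In the list of small intestinal enterocytes, 5 genes were measured (Sis and Lct had no named row), and Fabp2 (3.38, SE 0.86) and Alpi (1.39, SE 0.37) passed the screen as higher. The mean of the list was 9.46 and 10.72 in control and 11.28 and 11.21 in MSCT, and the log2 of its summed intensity was 12.84 and 13.57 against 13.76 and 13.72. Slc5a1, the sodium-glucose transporter of this list, was lower in MSCT, from 11.72 and 12.14 to 11.31 and 11.64.

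Of 7 liver markers, 4 were higher and 3 lower, with a median difference of 0.14. Only Apob passed the screen, as higher (1.11, SE 0.27). The log2 of the summed intensity of the 7 was 12.95 and 13.24 in control and 13.15 and 13.23 in MSCT. Albumin (Alb) lay between 11.13 and 11.58. Both measured goblet cell markers passed as higher, Zg16 with 2.65 (SE 0.26) and Tff3 with 1.49 (SE 0.25), and their log2 summed intensity went from 11.21 and 11.48 to 13.69 and 13.81. Of 3 leukocyte markers, Cd68 passed as higher (1.29, SE 0.21). Cd4 (0.37, SE 0.28) and Cd8a (0.01, SE 0.47) did not pass and overlapped between the groups. The log2 summed intensity of the 3 went from 10.62 and 10.56 to 11.47 and 11.81, and Cd68, the brightest, made up most of it. The part of these cell types, or of where along the colon the tissue was taken, in the enzyme differences was not tested.

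**Figure D5:**
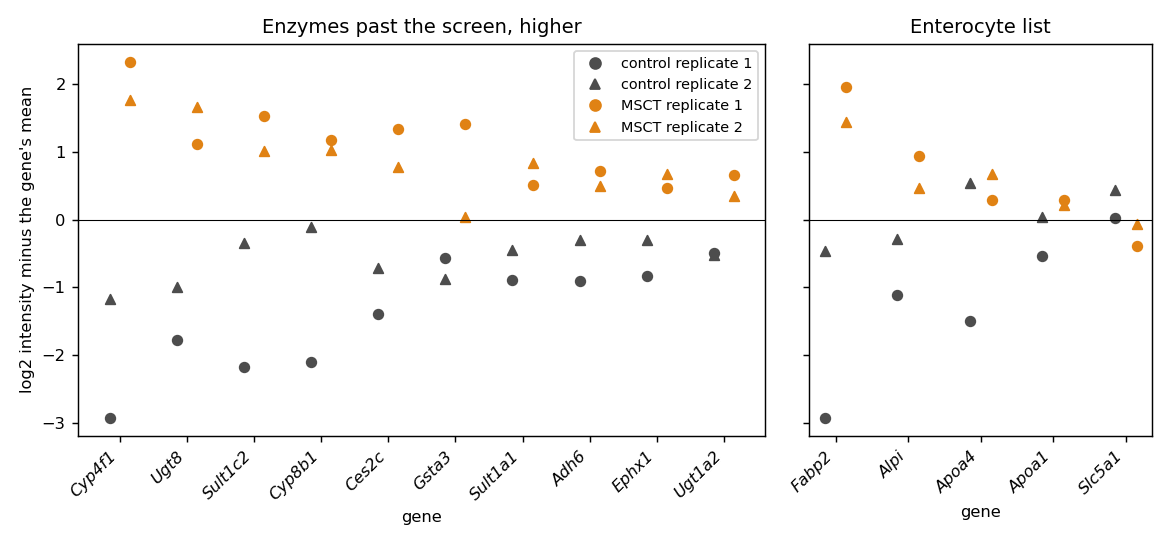
Log2 intensity of each gene minus its own mean over the 4 arrays, for the 10 enzymes past the screen as higher (left) and the 5 measured genes of the small intestinal enterocyte list (right). Control replicate 1 is the lowest array for most genes of both panels. The enzymes on the left were picked as higher in MSCT, so a low control array is partly fixed by that choice. Slc5a1 runs the other way, with both MSCT arrays below both control arrays.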

How the data were processed

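Total RNA from the colon of 2 control and 2 MSCT rats was turned into Cy3-labeled cDNA and measured on NimbleGen one-color arrays, 1 for each rat. The series' design text describes separate rats, and their number limits the precision of each value. The authors used an Axon GenePix scanner and NimbleScan software, and the table they deposited holds a linear intensity for each RefSeq transcript on each array. The submitters' processing notes name RMA. The rule that left 8070 of 26420 rows blank, detection calls and slide or scan batches are not given in the sources used here. No value column was left without a sample (0).

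Intensities were taken as log2 values with no pseudocount, further scaling or filter. limma 3.58.1 in R 4.3.3 (lmFit, eBayes) compared MSCT with control over all 18350 measured rows without covariates, and the Benjamini-Hochberg method adjusted over all of them. The screen was an unadjusted p of 0.05 and a fold of 2. With 2 arrays in each group the smallest two-sided p of an exact permutation test is 0.333, which makes the p-values depend on the variance shared between rows. The fit was tested on simulated data.

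Gene symbols came from RefSeq's gene table for GRCr8 (7010 of 7292 measured NM rows and 58 of 11058 XM rows), with the brightest row for each gene. Promoters are those of RefSeq, GRCr8, and were aligned locally with Biopython 1.88 (match 2, mismatch -1, gap opening -3, gap extension -1). Figures were drawn with Python 3.11.15, pandas 2.3.3 and matplotlib 3.10.9.

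The members and lists were chosen with earlier results of these data known. Named are members past the screen, the brightest, highest and lowest of each family, genes the study names, members with the widest replicate gap, partner genes past the screen, Ahr, Nr1i2, Nr1i3, Nfe2l2, Por and Hnf4a, and marker genes past the screen. One gene under this rule is not reported here. Other genes, among them neighbours, further members of a subfamily, partner genes under an unadjusted p of 0.05, and Epcam, Alb and Slc5a1, were chosen after their values were seen. Alternatives were a fit without the dimmest 25% or 50% of rows, array medians set equal, quantile normalization, and the trend and robust options of eBayes. Further alternatives were an ordinary t-test with equal variances, the replicate number as a block and each array left out. The last were a fold limit of 1.5, the mean over the rows of a gene, and folds of linear means. Counts of partner genes and the split by direction were added to these after the data were seen.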

Additional observations from a re-analysis of the deposited data

How the results depend on the processing

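The count of 14 enzymes past the screen was 22 with a fold limit of 1.5, 7 by the methods' t-test and between 12 and 26 with 1 array left out. It was 26 without control replicate 2, and the count of lower enzymes went from 4 to 10 without MSCT replicate 2. The count past an adjusted p of 0.05 went from 0 to 10 with an intensity-dependent robust variance and to 6 without the dimmest 50% of rows, a fit that also tests fewer rows. Partner genes past the screen went from 2 to 10 with a fold limit of 1.5, again without the share of all rows, and their count also changed with 1 array left out.

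Among the members named by rule and the family medians, few signs changed. Other members are not listed here, and some of their signs also depended on 1 array. In Cyp2a1, Cyp2c11 and Ces1c, for example, control replicate 2 lay above both MSCT arrays although the difference was positive. Adh1c was -0.02 after quantile normalization and between -0.07 and 0.10 with 1 array left out. The Cyp3 median was -0.09 and -0.14 without the dimmest 25% and 50% of rows and between -0.17 and 0.10 with 1 array left out. The Ugt median was -0.01 under both of these filters. With 1 array left out, the Gst median lay between -0.10 and 0.23, Cyp4f4 between -0.46 and 2.30 and Sult1c3 between -0.44 and 1.78. The median of all enzymes kept its sign under every alternative and lay between 0.05 and 0.31. Except where the setting itself changes the rows tested or the limit, the cause was not tested.

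With the replicate number as a replicate block, 15 enzymes passed the screen, the 14 that passed without it and Cyp1a2, and 0 passed an adjusted p of 0.05. The block brought 6 enzymes past an unadjusted p of 0.05 (Adh7, Ces1e, Cyp1a2, Cyp2a2, Cyp2c7 and Cyp4f18) and took 2 out (Fmo2 and Gsta1). The gap between replicates 1 and 2 correlated across rows between the groups at 0.234. With only 2 pairs, and no label tying the numbers to a shared litter or day, the numbers are read as names. Dim transcripts limit what can be seen. The control arrays were over 2-fold apart in 21 of the 55 enzymes among the dimmest 50% of rows (38.2%), against 16.2% of those rows. They were that far apart in 3 of the other 49 enzymes (6.12%), against 1.23% of the other rows.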
